A study of Homo sapiens with 12 samples.

Results

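The genes of 10 immune checkpoint ligands and suppressors were followed across 4 lines of a human pancreatic carcinoma cell line. They were taken from the deposited table by symbol, 10 of its 63086 genes. CD274, PDCD1LG2, CD276 and HHLA2 encode ligands of the B7 family (PD-L1, PD-L2, B7-H3 and HHLA2). PVR encodes the poliovirus receptor, CD47 a signal against phagocytosis, LGALS9 and LGALS1 galectins, and IDO1 and NT5E enzymes that change the medium around a T cell. Of the 10 members, 6 reached the mean normalised count of 10 that was required for the test, and 4 (CD274, PDCD1LG2, HHLA2 and IDO1) did not.

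Checkpoint ligands sit on tumour cells and bind receptors that dampen T cells, natural killer cells or macrophages. PD-L1 and PD-L2 bind PD-1 on activated T cells, PVR binds the inhibitory receptor TIGIT and the activating receptor CD226, and CD47 binds SIRPA on macrophages. Galectins bind sugar chains on surface proteins, among them those of the T cell receptor HAVCR2 in the case of galectin-9. IDO1 breaks down tryptophan, and NT5E, also called CD73, makes adenosine from AMP, and both are known to hold back T cells. Interferons are well known to raise CD274 and IDO1 in tumour cells.

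RNA of MIA PaCa-2, a line derived from a pancreatic carcinoma, was measured in 12 libraries. Each of 4 lines gave 3 biological replicates, all grown in the same medium to similar density. WT was not manipulated, and CRISPR Control went through the editing with CRISPR-Cas9 and acquired only a silent point mutation. TIMP1 KO 1 and TIMP1 KO 2 were both knockout clones, in which guide RNAs cut exon 4 of TIMP1, the gene of an inhibitor of metalloproteinases, and the study asked what its loss changes. The KO lines are called deficient here, and WT and CRISPR Control competent. Each line is 1 lineage, so the effect of the knockout and differences between clones cannot be told apart, and p-values measure the spread between the 3 libraries of a line only. In such bulk samples, fewer cells that make an RNA and less of it in each cell also cannot be told apart.

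Libraries held 26908701 to 36093563 reads in genes. TIMP1 RNA persisted in the KO lines at a lower level, with mean normalised counts of 3553 in WT, 2690 in CRISPR Control, 1600 in TIMP1 KO 1 and 1161 in TIMP1 KO 2. The study reported frameshift mutations in both KO lines by Sanger sequencing, and the RNA level does not give the level of protein. All 8 carcinoma markers were detected, with KRT8 between 34968 and 138359 normalised counts, but their levels differed between lines. CDH1 was at 1189 in WT, 1424 in CRISPR Control, 128 in TIMP1 KO 1 and 84.9 in TIMP1 KO 2. KRT19 was at 15707, 4583, 24591 and 52497 in the same order, and CDH2 at 571, 1110, 93.7 and 384. Against WT 3 of 8 were higher and 2 lower in TIMP1 KO 1 (35.5% of all tested genes passed). In TIMP1 KO 2 2 were higher and 5 lower (55.0%). The defining blood cell markers were at or near 0, with no read of MS4A1, at most 1 read of CD3D and at most 9 of PTPRC in any library. The summed level of the 10 blood cell markers was nevertheless 249 to 299 in TIMP1 KO 2 against 58.9 to 73.3 in WT, most of it from CD14 and ITGAM, the only 2 of them that reached the minimum. The 5 fibroblast markers summed to 11229 to 11925 in WT, 7707 to 10107 in CRISPR Control, 50853 to 64836 in TIMP1 KO 1 and 29173 to 40175 in TIMP1 KO 2, nearly all of it COL1A1, with DCN and LUM at most at 3 and 6 reads and PDGFRA at 283 in TIMP1 KO 2 against 23.6 in WT. The 4 endothelial markers summed to 133 to 145 in WT, 35.2 to 39.7 in CRISPR Control, 97.9 to 109 in TIMP1 KO 1 and 231 to 250 in TIMP1 KO 2, most of it KDR. The part of these markers in the results was not tested.

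Per kilobase of exon, LGALS1 was the most abundant member in every line and the 4 members under the minimum were among the rarest. In WT, LGALS1 stood at a mean normalised count of 17742 per kb, NT5E at 2488, CD276 at 589, PVR at 354 and CD47 at 216. CD274 followed far below at 1.35 per kb and LGALS9 at 0.458. In TIMP1 KO 1 CD47 (324 per kb) stood above PVR (254). In TIMP1 KO 2 the order changed further below NT5E (4981 per kb), where CD47 stood at 566, above CD276 at 364 and PVR at 259. LGALS9 reached 12.4 per kb there and CD274 4.51. In CRISPR Control NT5E was down to 785 per kb, and its libraries overlapped with those of CD276 (861 per kb). PVR and CD47 overlapped in that line as well, as did LGALS9 and CD274 in both CRISPR Control and TIMP1 KO 1.

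**Figure D1:**
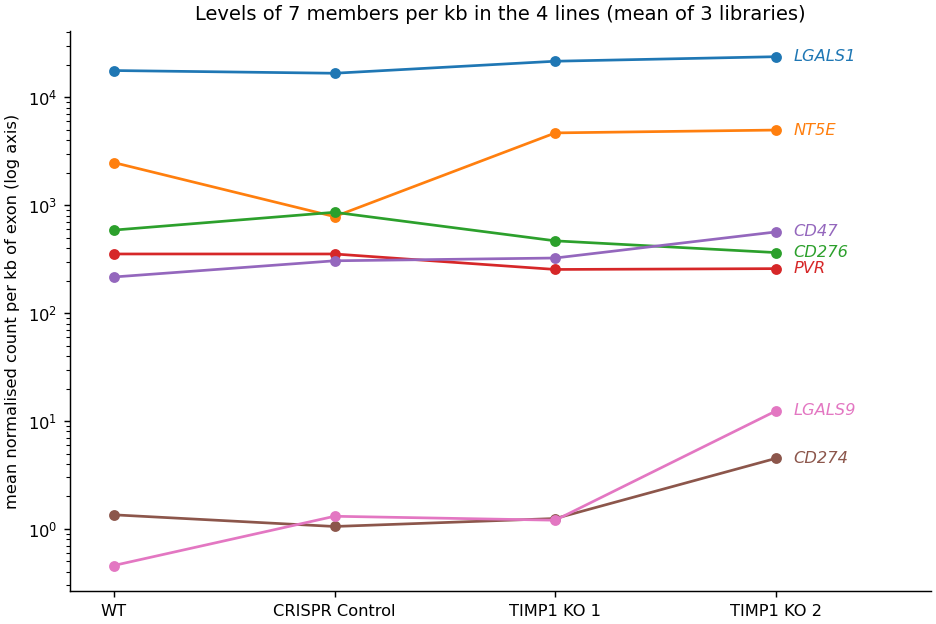
Mean normalised count per kb of exon (log axis) of 7 members in the 4 lines, each point the mean of 3 libraries and each coloured line joining the values of 1 gene. LGALS1 is highest in every line, NT5E is lowest in CRISPR Control, CD47 is above PVR in both KO lines and above CD276 in TIMP1 KO 2, and LGALS9 and CD274 lie between 0.458 and 12.4 per kb.

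Differences between these lines were common among all genes, and the members are read against that background. All 6 tested members passed in TIMP1 KO 2 against WT (limma, adjusted p under 0.05), where 55.0% of all tested genes passed. LGALS9 reached the minimum only through TIMP1 KO 2, so its calls in all comparisons that hold that line, those given below included, were fixed by its entry. In TIMP1 KO 1 against WT 5 of 6 passed (35.5% of all tested genes), and in CRISPR Control against WT 4 of 6 (53.4%). Against CRISPR Control, 4 of 6 passed in TIMP1 KO 1 (63.0%) and 6 of 6 in TIMP1 KO 2 (67.7%). Between TIMP1 KO 1 and TIMP1 KO 2 3 of 6 differed (38.2%), which were CD276, CD47 and LGALS9. Between the means of deficient and competent lines 6 of 6 passed, where 65.9% of all tested genes did. Against WT, CD276 and PVR were lower in both KO lines, and CD47, LGALS1 and NT5E were higher. Both comparisons use the same WT libraries. The median log2 fold change of the tested members was 0.44 in TIMP1 KO 1 and 0.71 in TIMP1 KO 2 (0.42 without LGALS9), beside 0.00 and -0.01 over all tested genes.

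PVR and LGALS1 were the 2 of 6 members that differed from WT in the same direction in both KO lines without a difference between CRISPR Control and WT, a pattern that 10.2% of all tested genes showed. All libraries of the deficient lines were separated from all of the competent lines in 4 of 6 tested members, lower in CD276 and PVR and higher in LGALS1 and NT5E. Over all tested genes 24.7% were separated in this way. With the 4 lines as units, an exact two-sided permutation test of 2 against 2 line means cannot go below p = 0.333. That test therefore cannot decide for any member. CD276, PVR, CD47, LGALS1 and NT5E reached its lowest value, but the share of all tested genes that did so was not computed. Their number has no background to be read against.

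CD276, which encodes the B7 family member B7-H3 and lies at chr15:73683966-73714514 (GRCh38, plus strand), fell in both deficient lines. Its normalised counts were 3286, 3061 and 3335 in WT and 4673, 4425 and 5062 in CRISPR Control. TIMP1 KO 1 libraries held 2533, 2529 and 2632 and TIMP1 KO 2 libraries 1874, 1994 and 2123. All 4 lines were separated from each other, with CRISPR Control highest and TIMP1 KO 2 lowest. The log2 fold change against WT was -0.33 in TIMP1 KO 1 (SE 0.07, limma adjusted p = 0.00149) and -0.69 in TIMP1 KO 2 (SE 0.07, limma adjusted p = 1.87e-07). CRISPR Control was higher than WT by 0.55 on the log2 scale (SE 0.07, limma adjusted p = 4.27e-06), so that the distance between each KO line and a competent line depends on which competent line is taken. CD276 was at 79.5% of WT but 54.3% of CRISPR Control in TIMP1 KO 1, and at 61.9% of WT but 42.3% of CRISPR Control in TIMP1 KO 2. TIMP1 KO 2 was lower than TIMP1 KO 1 (log2 fold change -0.36, SE 0.07, limma adjusted p = 0.000588).

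**Figure D2:**
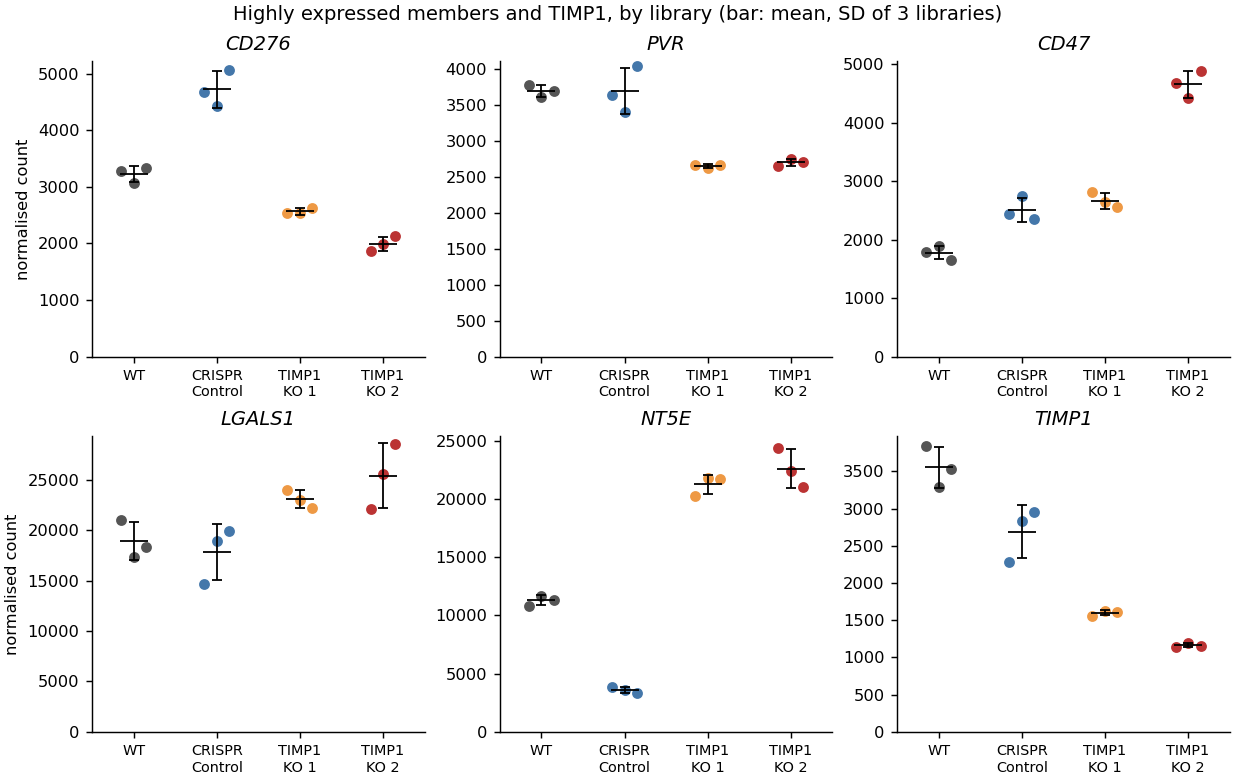
Normalised counts of the 5 members with a high level and of TIMP1 in each of the 12 libraries (points, axes from 0), with the mean and SD of the 3 libraries of a line as black bars. CD276 and PVR are lowest in the KO lines, CD47 is highest in TIMP1 KO 2, LGALS1 and NT5E are highest in both KO lines, and NT5E is at 3558 in CRISPR Control against 11279 in WT.

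CD274, which encodes PD-L1 (chr9:5450503-5470566, plus strand), was close to the limit of detection and stood out in TIMP1 KO 2. WT libraries held 4, 6 and 7 reads, CRISPR Control libraries 2, 3 and 7, and TIMP1 KO 1 libraries 1, 8 and 6. TIMP1 KO 2 libraries held 18, 28 and 16 reads. The reads summed to 17 in WT (exact Poisson 95% interval 9.90 to 27.2), 12 in CRISPR Control (6.20 to 21.0), 15 in TIMP1 KO 1 (8.40 to 24.7) and 62 in TIMP1 KO 2 (47.5 to 79.5). These intervals cover counting error only. Each of the 3 TIMP1 KO 2 libraries was above each of the other 9, which overlapped among themselves. The mean normalised count was 18.5 ± 5.25 (SD, n = 3) in TIMP1 KO 2 and 5.55 ± 1.07 (SD, n = 3) in WT, 3.34 times as high. With the minimum removed (35235 genes), the log2 fold change against WT was 1.56 and missed the threshold with limma (adjusted p = 0.0724), while it passed with edgeR (1.71, adjusted p = 0.00769) and with DESeq2 (1.73, adjusted p = 0.0316). Against CRISPR Control it was 2.00 (limma adjusted p = 0.0147) and against TIMP1 KO 1 1.91 (limma adjusted p = 0.0375). The call against CRISPR Control was lost without any of CRISPR Control replicates 1 and 2 or TIMP1 KO 2 replicates 2 and 3 (adjusted p up to 0.0917). The call against TIMP1 KO 1 was lost in 10 of the 12 fits that left out 1 library (adjusted p up to 0.175), all but those without CRISPR Control replicate 3 and without TIMP1 KO 1 replicate 2, and its log2 fold change was 1.27 without TIMP1 KO 1 replicate 1. Without the minimum 25.9%, 34.4% and 17.0% of genes passed in TIMP1 KO 2 against WT, CRISPR Control and TIMP1 KO 1.

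PDCD1LG2 and HHLA2, the other rare ligands of the family, were read in TIMP1 KO 2 and hardly elsewhere. HHLA2, a ligand of the T cell proteins TMIGD2 and KIR3DL3 (chr3:108296529-108378285, plus strand), had no read in any of the 9 other libraries, where a count of 0 allows up to 3 reads, and 11, 7 and 2 reads in TIMP1 KO 2. Its mean normalised count of 5.76 ± 3.56 (SD, n = 3) there was at least 1.92-fold higher than in WT, computed against a floor of 3 reads per library. Without the minimum the difference from WT passed with limma (adjusted p = 8.45e-05) and edgeR (adjusted p = 0.00602), and it missed with DESeq2 (adjusted p = 0.391). These fits held every gene with any read, and HHLA2 entered them only through TIMP1 KO 2. Its excess in that line was thus fixed by its entry. PDCD1LG2, which encodes PD-L2 (chr9:5510531-5571282, plus strand), had no read in WT or TIMP1 KO 1, 1 read in CRISPR Control and 4, 1 and 1 reads in TIMP1 KO 2. No fold is given, as the mean stayed under the floor. For a gene with 6 reads in TIMP1 KO 2 the tools differed, with an adjusted p of 0.0125 with limma and 0.17 with edgeR for PDCD1LG2 against WT without the minimum. CD274 and PDCD1LG2 share bases with an unnamed gene on the opposite strand, and the strand setting of the counting is not given in the sources used here.

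**Figure D3:**
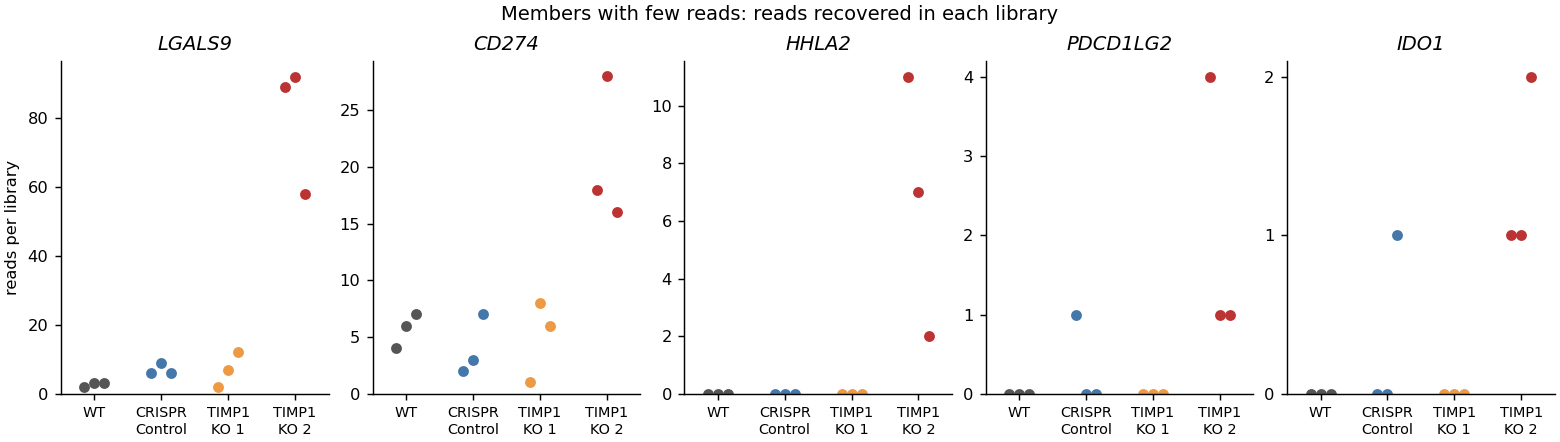
Reads recovered in each of the 12 libraries for LGALS9 and the 4 members under the minimum (points, 3 per line, axes from 0 and different in each panel). The TIMP1 KO 2 libraries hold 58 to 92 reads of LGALS9, 16 to 28 of CD274 and 2 to 11 of HHLA2, each above every library of the other lines, while PDCD1LG2 and IDO1 stay at 4 reads or fewer.

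Promoter sequences of CD274, LGALS9 and HHLA2, whose reads in each TIMP1 KO 2 library exceeded those in every library of the other lines, are shown because interferon-response genes, described further on, were higher in that line too. The windows are RefSeq sequences of GRCh38.p14, each reaching from 250 bases before a start site to the first 50 transcribed bases, and 7 of 10 members had at least 1 (CD276 had 2 and HHLA2 had 3). No entry was held for PDCD1LG2, LGALS1 and IDO1. Windows were searched on both strands for the core of the interferon-stimulated response element (ISRE), which is GAAA followed after any 2 bases by another GAAA, and for the interferon-gamma-activated site (GAS), TTCNNNGAA, which reads the same on both strands. Of the 35116 windows of all genes, 3.57% held the ISRE core and 7.66% the GAS. Of the 10 member windows 3 held the ISRE core, 1 each of CD274, LGALS9 and HHLA2, and 1 held the GAS, that of CD274. The windows of CD276, PVR, CD47 and NT5E held neither. Of the 22 windows of the interferon-response reference genes 14 held the ISRE core (63.6%). The CD274 stretch printed here is chr9:5450292-5450502 on the plus strand, outside every annotated exon. Its capitals mark a pair of overlapping ISRE cores on the opposite strand, from -208 to -193 relative to the start site, and a GAS from -125 to -117. The LGALS9 stretch, chr17:27631169-27631198, holds its ISRE core from -9 to 0 (0 is the first transcribed base), and the HHLA2 stretch, chr3:108302505-108302534, from 40 to 49 at the second of its start sites. Both stretches are printed on the plus strand and lie inside an annotated exon. Capitals mark the core, which is on the opposite strand in both.
CD274: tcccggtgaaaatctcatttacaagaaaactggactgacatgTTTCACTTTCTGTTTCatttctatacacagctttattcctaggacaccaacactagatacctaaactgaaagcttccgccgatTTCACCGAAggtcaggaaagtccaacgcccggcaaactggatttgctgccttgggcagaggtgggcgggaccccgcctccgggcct
LGALS9: gttgctttggTTTCTATTTCtttgttaagt
HHLA2: atcgacttttttgaattagtTTTCAGTTTC
A match of letters is a description of the sequence and was not tested as a binding site.

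PVR (chr19:44643798-44666162, plus strand) fell to a similar level in both deficient lines and did not move in the edited control. Its normalised counts were 3770, 3601 and 3691 in WT and 3629, 3397 and 4034 in CRISPR Control, 2661, 2619 and 2668 in TIMP1 KO 1 and 2642, 2741 and 2707 in TIMP1 KO 2. The competent lines overlapped, the KO lines overlapped, and the KO libraries all lay below the competent ones. TIMP1 KO 1 stood at 71.8% of WT (log2 fold change -0.48, SE 0.07, limma adjusted p = 2.68e-05) and TIMP1 KO 2 at 73.1% (-0.45, SE 0.07, limma adjusted p = 2.18e-05). CRISPR Control differed from WT by 0.00 on the log2 scale (95% interval -0.15 to 0.14, limma adjusted p = 0.969), and the KO lines from each other by 0.03 (95% interval -0.12 to 0.17, limma adjusted p = 0.806). Both intervals leave out a change as large as that of either KO line. PVR overlaps CEACAM19 on the same strand and CEACAM16-AS1 and MIR4531 on the opposite strand, so some reads may belong to these genes.

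CD47, the ligand of the macrophage receptor SIRPA (chr3:108043091-108091862, minus strand), was lowest in WT and highest in TIMP1 KO 2. Libraries of WT held 1794, 1889 and 1662 normalised counts, those of CRISPR Control 2449, 2748 and 2355, and those of TIMP1 KO 1 2822, 2639 and 2554. TIMP1 KO 2 libraries held 4677, 4423 and 4888. WT was below and TIMP1 KO 2 above all other libraries, and CRISPR Control and TIMP1 KO 1 overlapped. TIMP1 KO 2 was at 2.62 times WT (log2 fold change 1.39, SE 0.08, limma adjusted p = 3.33e-11), 1.85 times CRISPR Control and 1.75 times TIMP1 KO 1 (0.80, SE 0.08, limma adjusted p = 1.65e-07). TIMP1 KO 1 was higher than WT (log2 fold change 0.58, SE 0.08, limma adjusted p = 8.8e-06), and CRISPR Control at 1.41 times WT (0.50, SE 0.08, limma adjusted p = 2.86e-05). These 2 lines differed from each other by 0.09 (95% interval -0.07 to 0.25, limma adjusted p = 0.337), so for CD47 a KO line was not told apart from the edited control.

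LGALS9, the gene of galectin-9 (chr17:27629798-27649560, plus strand), rose from a few reads to at least 58 in TIMP1 KO 2. WT libraries held 2, 3 and 3 reads, CRISPR Control libraries 6, 9 and 6, and TIMP1 KO 1 libraries 2, 7 and 12. TIMP1 KO 2 libraries held 89, 92 and 58 reads, or 73.7, 80.7 and 58.5 normalised counts. The TIMP1 KO 2 libraries were far above all others, and CRISPR Control was above WT in every library, while TIMP1 KO 1 overlapped both. The level in TIMP1 KO 2 was at least 23.7-fold higher than in WT, where all libraries were at or under the floor of 3 reads. It was 10.3 times that of TIMP1 KO 1 (log2 fold change 3.37, SE 0.46, limma adjusted p = 1.05e-05) and 9.48 times that of CRISPR Control (3.12, SE 0.46, limma adjusted p = 6.97e-06). LGALS9 reached the minimum for the test only through TIMP1 KO 2, so these differences were fixed by its entry. TIMP1 KO 1 against WT missed the threshold (0.93, limma adjusted p = 0.122). It passed at 1.49 without TIMP1 KO 1 replicate 1 (limma adjusted p = 0.0109), and it also passed with quantile normalization. CRISPR Control against WT passed at 1.18 (SE 0.46, limma adjusted p = 0.0363), a call that was lost with edgeR (adjusted p = 0.0576), DESeq2 (0.0524), a pseudocount of 10 (0.0872), no minimum (0.11) and the 6 compared libraries alone (0.0854), and without any of WT replicates 1, 2 and 3, CRISPR Control replicates 2 and 3 or TIMP1 KO 2 replicates 1 and 2 (adjusted p 0.0515 to 0.138). The near copies LGALS9B and LGALS9C, with which reads could be shared, had 0 reads and at most 5 reads in any library. Galectin-9 is also made by myeloid cells. CD14 and ITGAM stood at 161 and 91.7 normalised counts in TIMP1 KO 2 against 36.2 and 18.8 in WT, and CD68 at 11.4 ± 0.670 (SD) against 2.66 ± 1.48. LYZ was at 0.585 ± 1.01 against 3.34 ± 2.40, and PTPRC, which marks all leukocytes, at 2.49 ± 4.30 against 5.17 ± 1.65. Whether these markers bear on the level of LGALS9 was not tested.

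LGALS1, the gene of galectin-1 (chr22:37675636-37679802, plus strand), was abundant everywhere and modestly higher in the deficient lines. Normalised counts were 21023, 17399 and 18370 in WT, 14668, 18977 and 19943 in CRISPR Control, 23990, 23052 and 22227 in TIMP1 KO 1 and 22143, 25586 and 28578 in TIMP1 KO 2. All 6 KO libraries were above the 6 competent ones, with a small gap between 21023 and 22143. The log2 fold change against WT was 0.42 in TIMP1 KO 2 (SE 0.11, limma adjusted p = 0.00288). In TIMP1 KO 1 it was 0.29 (SE 0.11, limma adjusted p = 0.0444). That call lay near the threshold and was lost without any of WT replicates 2 and 3, TIMP1 KO 1 replicates 1, 2 and 3 or TIMP1 KO 2 replicate 2 (adjusted p 0.0579 to 0.164), which left PVR as the only member with the shared pattern described above. CRISPR Control differed from WT by -0.09 (95% interval -0.32 to 0.14, limma adjusted p = 0.499) and TIMP1 KO 2 from TIMP1 KO 1 by 0.13 (95% interval -0.10 to 0.36, limma adjusted p = 0.36).

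NT5E, which encodes CD73 (chr6:85449584-85495791, plus strand), had the widest span among the abundant members, and the competent lines stood apart from each other. Its normalised counts were 10824, 11673 and 11340 in WT and 3806, 3552 and 3315 in CRISPR Control. TIMP1 KO 1 held 20275, 21780 and 21677, and TIMP1 KO 2 held 24327, 22424 and 20985. The KO lines overlapped at the top, WT lay between, and CRISPR Control lay lowest. TIMP1 KO 1 was at 1.88 times WT (log2 fold change 0.91, SE 0.07, limma adjusted p = 1.25e-08) and TIMP1 KO 2 at 2.00 times WT (1.00, SE 0.07, limma adjusted p = 1.48e-09). CRISPR Control was at 31.5% of WT (-1.67, SE 0.07, limma adjusted p = 8.43e-13), a larger change on the log2 scale than that of either KO line and in the opposite direction. Set against CRISPR Control, the KO lines were therefore at 5.97 and 6.35 times its level. They differed from each other by 0.09 (95% interval -0.07 to 0.24, limma adjusted p = 0.38).

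IDO1 (chr8:39902275-39928790, plus strand) was not detectable above the floor in any line. It had no read in WT or TIMP1 KO 1, 1 read in CRISPR Control and 1, 1 and 2 reads in TIMP1 KO 2. With a floor of 3 reads per library no fold can be given. As for PDCD1LG2 the tools differed on these few reads, with an adjusted p of 0.0264 with limma and 0.268 with edgeR for TIMP1 KO 2 against WT without the minimum.

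**Figure D4:**
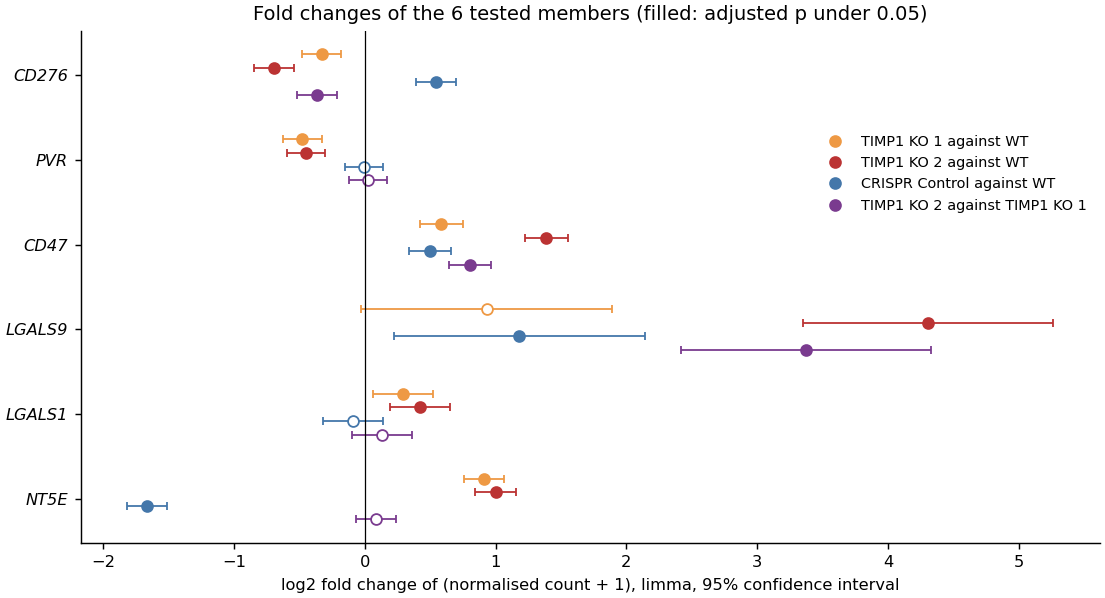
Log2 fold changes of the 6 tested members on the log2(normalised count + 1) scale with 95% confidence intervals from limma, for each KO line and CRISPR Control against WT and for the KO lines against each other; filled points have an adjusted p under 0.05. CD276, CD47 and LGALS9 differ between the KO lines, PVR, LGALS1 and NT5E do not pass in that comparison (0.03, 0.13 and 0.09), and NT5E moves to -1.67 in CRISPR Control. LGALS9 reached the minimum only through TIMP1 KO 2.

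Other co-signalling genes moved in both directions. The list held B7, butyrophilin and nectin genes and genes of other families, among them LGALS3, HMGB1, TNFSF4, TNFSF9, CD70 and CD40. It was not limited to inhibitory ligands, and TNFSF4, TNFSF9, CD70 and CD40 were among the genes higher in TIMP1 KO 2 than in WT. Of the 35 listed genes 25 were tested. In TIMP1 KO 1 against WT 10 were higher, 7 lower and 8 did not pass, where 35.5% of all tested genes passed and 18.0% were higher. In TIMP1 KO 2 16 were higher, 5 lower and 4 did not pass, where 55.0% of all tested genes passed and 27.1% were higher. The median log2 fold changes were 0.17 and 0.62 (0.55 without BTN1A1, which reached the minimum only through TIMP1 KO 2). CRISPR Control against WT had 5 higher and 7 lower (53.4% of all tested genes passed), with a median of -0.11. CD24, a ligand of the inhibitory receptor SIGLEC10 on macrophages, ran from 2174 ± 121 (SD, n = 3) normalised counts in CRISPR Control and 8388 ± 758 in WT to 13383 ± 384 in TIMP1 KO 1 and 21098 ± 1179 in TIMP1 KO 2. CRISPR Control was lowest and WT next, as for NT5E, and TIMP1 KO 2 was above TIMP1 KO 1 (log2 fold change 0.66, limma adjusted p = 1.41e-06), which was not seen for NT5E. BTN3A3, a butyrophilin sensed by gamma-delta T cells, stood at 11.9 ± 2.20 in WT, 16.1 ± 0.656 in CRISPR Control, 35.9 ± 2.78 in TIMP1 KO 1 and 161 ± 7.77 in TIMP1 KO 2, and its close paralogs could share reads with it. NECTIN3, an adhesion protein related to PVR, was lower in both KO lines, at 26.9 ± 4.42 and 51.7 ± 9.84 against 170 ± 25.8 in WT and 531 ± 65.1 in CRISPR Control. CEACAM1, a ligand of HAVCR2, was at 5.18 ± 2.41 in TIMP1 KO 1 and 42.5 ± 11.3 in TIMP1 KO 2, the largest difference between TIMP1 KO 2 and TIMP1 KO 1 among the tested genes of the list (2.85 on the log2 scale, limma adjusted p = 4.42e-06).

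Genes of enzymes, soluble factors, transporters and receptors linked to the suppression of T cells moved in both directions. Of 27 listed genes 19 were tested, and the list was not limited to suppressive genes. In TIMP1 KO 1 against WT 2 were higher and 9 lower, where 35.5% of all tested genes passed, 2883 higher and 2799 lower. In TIMP1 KO 2 6 were higher and 5 lower (55.0%). The medians were -0.22 and 0.07. In CRISPR Control against WT 10 were higher and 6 lower (53.4%), with a median of 0.33. NOS2 reached the minimum only through CRISPR Control, so its call there was fixed by its entry. Without NOS2 9 of 18 were higher and 6 lower, with a median of 0.15. SLC7A5, a transporter of tryptophan and other large amino acids, was at 6622 ± 337 (SD, n = 3) and 5262 ± 268 normalised counts in the KO lines against 15212 ± 722 in WT and 26376 ± 3396 in CRISPR Control. ARG2, an arginase, was at 16.3 ± 4.05 in CRISPR Control, 78.8 ± 13.5 in WT, 105 ± 10.9 in TIMP1 KO 1 and 176 ± 14.7 in TIMP1 KO 2, where TIMP1 KO 1 against WT missed the threshold (log2 fold change 0.42, limma adjusted p = 0.112). PTGS2, an enzyme of prostaglandin synthesis, was near 0 in WT (2.42 ± 2.28) and TIMP1 KO 1 (1.77 ± 3.06) and was detected in CRISPR Control (29.8 ± 1.27) and TIMP1 KO 2 (33.8 ± 14.4). NOS2, the inducible nitric oxide synthase, was at 33.2 ± 1.34 in CRISPR Control, 9.31 ± 6.20 in WT, 1.24 ± 1.33 in TIMP1 KO 1 and 2.82 ± 1.93 in TIMP1 KO 2. ALPL, an alkaline phosphatase, was highest in CRISPR Control as well (80.7 ± 10.0 against 25.8 ± 6.24 in WT) and was at 10.4 ± 5.42 in TIMP1 KO 1 and 28.4 ± 8.66 in TIMP1 KO 2.

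Among regulators and binding partners of the members, 30 of 31 listed genes were tested, with 11 higher and 2 lower in TIMP1 KO 1 against WT (35.5% of all tested genes passed) and 14 higher and 9 lower in TIMP1 KO 2 (55.0%). The medians were 0.16 and 0.08, and CRISPR Control against WT had 13 higher and 13 lower (53.4% of all tested genes passed). THBS1, which encodes thrombospondin-1, a secreted ligand of CD47, rose from 648 ± 26.6 (SD, n = 3) normalised counts in WT to 2582 ± 86.8 in TIMP1 KO 1 and 2972 ± 182 in TIMP1 KO 2, and was at 269 ± 22.7 in CRISPR Control. The 2 KO lines did not pass against each other (log2 fold change 0.20, limma adjusted p = 0.0624). QPCT, a secreted relative of the enzyme that modifies CD47 for binding to SIRPA, was at 744 ± 69.8 in TIMP1 KO 2 and 537 ± 52.2 in CRISPR Control against 156 ± 13.0 in WT and 152 ± 22.2 in TIMP1 KO 1. NLRC5, which switches on MHC class I genes, stood at 44.8 ± 5.49 in WT, 74.6 ± 14.5 in CRISPR Control, 136 ± 15.6 in TIMP1 KO 1 and 532 ± 69.8 in TIMP1 KO 2. IRF9, a subunit of the factor that binds the ISRE, rose from 25.8 ± 5.96 in WT to 59.3 ± 2.37 in TIMP1 KO 1 and 125 ± 27.1 in TIMP1 KO 2. In CRISPR Control it was at 14.6 ± 1.79.

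Interferon-response genes, listed as a reference for members known to be interferon-inducible, were higher in TIMP1 KO 2. GBP1, GBP2, IFI44 and RSAD2 reached the minimum only through that line, with a mean under 10 over the other 3 lines, so that their excess there was fixed by their entry. The 13 other tested genes of the 20 listed were all higher than in WT, with a median log2 fold change of 2.29, where 27.1% of all tested genes were higher (17 of 17 and 3.85 with those 4 genes). In TIMP1 KO 1 13 of 17 were higher and none lower, with a median of 0.98, where 18.0% of all tested genes were higher. CRISPR Control had 5 higher and 5 lower than WT, where 53.4% of all tested genes passed. OAS2, an enzyme that senses double-stranded RNA, was at 15.1 ± 0.381 (SD, n = 3) normalised counts in WT, 138 ± 49.9 in TIMP1 KO 1 and 5153 ± 238 in TIMP1 KO 2. MX1 and OAS1, antiviral proteins, reached 10129 ± 300 and 4198 ± 293 in TIMP1 KO 2 from 54.6 ± 2.20 and 55.7 ± 13.6 in WT. In CRISPR Control OAS2 was at 13.0 ± 1.21, MX1 at 81.4 ± 15.9 and OAS1 at 29.1 ± 3.64. IFI44 and RSAD2, named for their difference between the KO lines and both among the 4 genes that entered through TIMP1 KO 2, were at 494 ± 27.0 and 740 ± 19.0 in TIMP1 KO 2 and 2.76 ± 2.31 and 10.6 ± 2.11 in TIMP1 KO 1. This list shares genes with that of the regulators, among them IRF1 and IRF9, and the regulators share JAK2 with the neighbours of CD274. Whether the levels of CD274, LGALS9 or HHLA2 depend on this response was not tested.

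**Figure D5:**
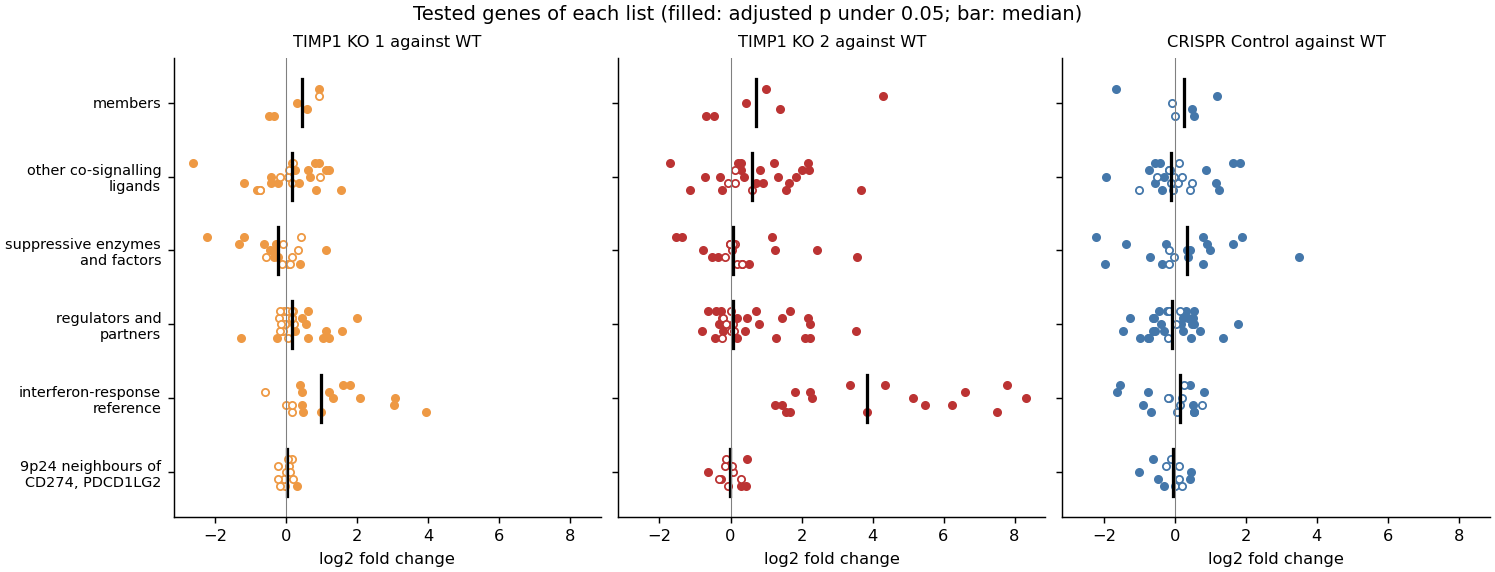
Log2 fold changes of the tested genes of each list in TIMP1 KO 1, TIMP1 KO 2 and CRISPR Control against WT (points, filled where the adjusted p is under 0.05; black bars are medians). The interferon-response reference genes have medians of 0.98, 3.85 and 0.15 in the 3 comparisons (2.29 in TIMP1 KO 2 without the 4 that entered through it), and those of the 9p24 neighbours of CD274 lie at 0.01, -0.01 and -0.06.

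Genes beside CD274 and PDCD1LG2 on chromosome 9p24 had median changes near 0. Of 20 listed neighbours 12 were tested, with 1 higher and none lower in TIMP1 KO 1 against WT (35.5% of all tested genes passed), 3 higher and 2 lower in TIMP1 KO 2 (55.0%) and 2 higher and 4 lower in CRISPR Control (53.4%), at medians of 0.01, -0.01 and -0.06. PLGRKT, a plasminogen receptor, was at 163 ± 25.5 (SD, n = 3) normalised counts in WT and 170 ± 20.7 in TIMP1 KO 2, and RIC1, a factor of Golgi traffic, at 499 ± 27.8 and 477 ± 9.77, with no difference past the threshold (limma adjusted p = 0.732 and 0.651). JAK2, a kinase of interferon receptors, was at 234 ± 47.2 in WT, 152 ± 27.9 in CRISPR Control, 258 ± 18.8 in TIMP1 KO 1 and 320 ± 51.3 in TIMP1 KO 2, where it passed against WT (log2 fold change 0.46, SE 0.17, limma adjusted p = 0.0274). That call was lost with quantile normalization (adjusted p = 0.18). ERMP1, a peptidase of the endoplasmic reticulum, fell to 1699 ± 96.9 in TIMP1 KO 2 and 1292 ± 98.4 in CRISPR Control from 2613 ± 60.1 in WT and was at 2592 ± 98.8 in TIMP1 KO 1. KDM4C, a histone demethylase, was higher in TIMP1 KO 2 (466 ± 33.6 against 346 ± 25.7 in WT), and UHRF2, a ubiquitin ligase, lower (709 ± 94.9 against 846 ± 89.7), a call that was lost with library totals set equal (adjusted p = 0.205). INSL6, INSL4, RLN2 and RLN1, which lie between JAK2 and PLGRKT, had at most 2 reads in any library.

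Receptors of lymphoid and myeloid cells, listed because some bind members (among them PDCD1, TIGIT, CD96, HAVCR2, TMIGD2 and KIR3DL3) and others bind other ligands, were mostly near 0. Of 15 listed receptor genes 2 were tested (LAG3 and KLRG1, whose known ligands are no members) and 5 had no read in any library, and the summed level was 51.5 to 71.2 normalised counts in TIMP1 KO 2 and 60.0 to 99.6 in WT. LAG3 was highest in CRISPR Control (98.7 ± 21.4, SD, n = 3, against 35.3 ± 18.5 in WT), and KLRG1 in TIMP1 KO 1 (61.9 ± 20.4 against 30.3 ± 4.69 in WT). PDCD1, the gene of PD-1, which was chosen after its values were seen, had a mean of 22.6 ± 9.94 in CRISPR Control and at most 1.24 in the other lines.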

How the data were processed

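The authors trimmed reads with Cutadapt, mapped them to GRCh38 with STAR, counted them per gene with featureCounts and divided each library by a DESeq2 size factor, per the study's methods. The strand setting and the annotation release are not given in the sources used here. The deposited values are thus a signal, normalised counts, which hide a change shared by most genes. All positive values gave whole reads within a tolerance of 0.01 after scaling, in 12 of 12 libraries. The authors' 4 columns of line means, 3 of them with names that match no label, and 1 blank line were not used.

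limma 3.58.1 (R 4.3.3; lmFit, contrasts.fit, eBayes with a trend) was run on log2(normalised count + 1) of 15987 genes with a mean of at least 10, over all 12 libraries with 4 line means, two-sided, with Benjamini-Hochberg adjustment over all tested genes and a threshold of 0.05. This scale understates changes of low genes. The deficient contrast is the mean of both KO lines minus that of WT and CRISPR Control. The code was tested on simulated data. edgeR 4.0.16 and DESeq2 1.42.0 on recovered reads, other pseudocounts, minimums and scalings, a fold limit, a replicate block and leaving out each library were alternatives. Gene coordinates and exon lengths are of GENCODE 44.

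The members and lists were chosen with earlier results of these data known. Besides the members, named genes were, from each list, the 3 largest changes past the threshold between deficient and competent lines and the 2 largest between the KO lines, the 9p24 neighbours between JAK2 and ERMP1, LGALS9B, LGALS9C and TIMP1.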

Additional observations from a re-analysis of the deposited data

Results flagged for a closer look

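For 3 members the change from WT differed between the KO lines, by the limma test of TIMP1 KO 2 against TIMP1 KO 1. CD276 fell further in TIMP1 KO 2, by a difference of -0.36 on the log2 scale (SE 0.07, adjusted p = 0.000588). CD47 rose further in TIMP1 KO 2, by 0.80 (SE 0.08, adjusted p = 1.65e-07). LGALS9 was higher there by 3.37 (SE 0.46, adjusted p = 1.05e-05), from at most 12 reads in any TIMP1 KO 1 library, but it reached the minimum for the test only through TIMP1 KO 2, so that this difference was fixed by its entry and supports nothing. Since each KO line is 1 clone, a difference between the clones and an effect of the knockout cannot be told apart.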

How the results depend on the processing

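No tested member changed direction past the threshold under any alternative. With an absolute log2 fold change of at least 1 required as well, the members passing were 0 in TIMP1 KO 1 against WT, 2 in TIMP1 KO 2 against WT, 2 in CRISPR Control against WT, 1 and 3 in TIMP1 KO 1 and TIMP1 KO 2 against CRISPR Control, 1 between the KO lines, 2 between deficient and competent lines and 0 in the pattern shared by both KO lines. Of all 15987 tested genes 1312, 2356, 2346, 3383, 3919, 1319 and 2324 passed in these comparisons, in the same order and without the shared pattern. Between the KO lines, 7 members passed with no minimum, where the 4 members under it were added, and 5 with quantile normalization, where LGALS1 and NT5E were added at 0.27 and 0.24. Over all genes 5990 of 35235 (17.0%) passed with no minimum and 6054 of 15987 with quantile normalization. HHLA2 entered the fit with no minimum only through TIMP1 KO 2. The shared pattern held 1 member, PVR, with no minimum and without the trend, and 1 to 2 when each library was left out in turn. Leaving out a library gave 4 to 5 members in TIMP1 KO 1 against WT and 3 to 4 in CRISPR Control against WT. The shares of all genes in the fits without a library, and in the shared pattern under any alternative, were not computed. These counts of members therefore have no background to be read against. Same replicate numbers did not mark paired samples: correlations of deviations from the line mean ran from -0.129 to 0.160 for shared numbers and from -0.189 to 0.126 for others. The replicate block left the counts of members at 5 in TIMP1 KO 1 and 6 in TIMP1 KO 2 against WT, where 5602 and 8714 of all tested genes passed. With library totals set equal, 59.9% of the calls in TIMP1 KO 2 against WT were higher (49.3% as deposited) and 65.5% between the KO lines (47.4%), and the median of all genes moved to 0.11 in TIMP1 KO 2 against CRISPR Control. CD274, PDCD1LG2, HHLA2 and IDO1 were tested without the minimum by edgeR and DESeq2 and with each library left out, alternatives chosen after seeing the data. Depth limits these 4 members: with at most 28 reads in a library, the tools gave different calls for each of them in TIMP1 KO 2 against WT.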
